A study of Mus musculus with 4 samples.

Results

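The mouse zinc finger genes that carry the symbol Zfp followed by a number were described here where they had a DNMT3B region in lung metastases. A gene was chosen by its name alone and by the presence of a region. It was a member if it was named beside a broad island, or if it was the nearest feature of a narrow region at a distance of 5000 bp or less. This gave 51 genes with 54 of the 8242 islands and 28 of the 1705 narrow regions, out of 4854 gene names in both lists under the same distance limit. Islands named 33 of the genes and narrow regions 24, and 6 genes had both. Among all 21887 protein-coding genes, 17.2% had an island, 5.78% a narrow region within the limit and 20.7% either. Having a region is what chose the members, so nothing is read from their number.

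The tumour cells were 4T1, a metastatic mammary carcinoma line of BALB/c mice, and the tissue was its metastases in the lung. DNMT3B places methyl groups on cytosines that did not carry them before. It was mapped by chromatin immunoprecipitation and sequencing in 2 ChIP libraries made with a DNMT3B antibody, against 2 input libraries made with no antibody, each kind from the lungs numbered 3 and 5. Nothing in the labels says that these were separate mice, and no treatment or genotype is given. The islands were called with SICER, which looks for broad enrichment, and the narrow regions with MACS. Both lists give positions without read counts or scores, so the depth is unknown and nothing can be said of the spread between lungs. Intervals are exact 95% binomial intervals, which cover counting error only. The shares below are descriptions of 2 lists, and no test was made between them.

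Zfp genes mostly encode proteins with C2H2 zinc fingers, small folds that hold a zinc ion and read DNA. Many also carry a KRAB box, which recruits the corepressor TRIM28 and with it enzymes that write repressive histone and DNA marks. Such genes arose by tandem duplication and stand in clusters on several mouse chromosomes, and their fingers are commonly encoded together in the last exon. The symbol is shared with unrelated proteins, such as the RNA-binding protein of Zfp36, so the members are a group by name and not by function.

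CpG, the dinucleotide that DNMT3B methylates, differed widely in number between the promoters of the members. The 250 bases before the annotated gene start are shown for 6 members, read 5′ to 3′ along the gene, from RefSeq on GRCm38.p6. They were picked after their values were seen and hold 5 to 27 CpG. Other members lay outside these limits, such as Zfp106 with 3 and Zfp651 with 38. Of the 6 shown, 4 had a narrow region just before the start, Zfp963 had one across a gene edge, and Zfp335 had an island over the start. Each CG is in capitals. The coordinates given with the sequences are those of GRCm38.p6 and not those of the deposited regions.
Zfp3 (chr11:70764197-70764446, plus strand, 27 CpG): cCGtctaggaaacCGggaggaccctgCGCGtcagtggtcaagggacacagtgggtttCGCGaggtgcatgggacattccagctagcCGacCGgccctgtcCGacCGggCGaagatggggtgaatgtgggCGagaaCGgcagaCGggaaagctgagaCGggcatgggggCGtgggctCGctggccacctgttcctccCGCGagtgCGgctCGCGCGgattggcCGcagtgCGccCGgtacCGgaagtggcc
Zfp335 (chr2:164911751-164912000, minus strand, 21 CpG): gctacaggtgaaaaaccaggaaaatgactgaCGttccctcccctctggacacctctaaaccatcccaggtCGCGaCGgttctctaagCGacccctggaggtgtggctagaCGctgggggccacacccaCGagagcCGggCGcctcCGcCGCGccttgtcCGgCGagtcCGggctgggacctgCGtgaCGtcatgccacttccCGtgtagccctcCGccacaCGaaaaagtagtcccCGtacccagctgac
Zfp964 (chr8:69654306-69654555, plus strand, 16 CpG): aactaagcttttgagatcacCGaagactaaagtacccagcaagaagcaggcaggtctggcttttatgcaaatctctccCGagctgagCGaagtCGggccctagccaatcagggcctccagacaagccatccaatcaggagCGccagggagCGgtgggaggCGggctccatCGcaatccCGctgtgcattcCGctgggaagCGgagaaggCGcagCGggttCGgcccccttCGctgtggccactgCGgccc
Zfp810 (chr9:22307639-22307888, minus strand, 15 CpG): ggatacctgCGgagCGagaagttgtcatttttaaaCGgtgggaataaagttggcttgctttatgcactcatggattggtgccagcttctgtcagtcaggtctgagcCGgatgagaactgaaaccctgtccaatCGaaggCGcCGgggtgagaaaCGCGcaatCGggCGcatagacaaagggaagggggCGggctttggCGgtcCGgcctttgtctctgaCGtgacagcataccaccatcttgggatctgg
Zfp30 (chr7:29783718-29783967, plus strand, 7 CpG): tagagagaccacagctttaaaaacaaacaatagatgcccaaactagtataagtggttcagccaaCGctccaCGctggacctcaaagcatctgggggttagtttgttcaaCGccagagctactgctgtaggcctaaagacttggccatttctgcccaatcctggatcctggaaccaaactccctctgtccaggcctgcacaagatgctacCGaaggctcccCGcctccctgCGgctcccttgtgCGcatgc
Zfp963 (chr8:69749963-69750212, minus strand, 5 CpG): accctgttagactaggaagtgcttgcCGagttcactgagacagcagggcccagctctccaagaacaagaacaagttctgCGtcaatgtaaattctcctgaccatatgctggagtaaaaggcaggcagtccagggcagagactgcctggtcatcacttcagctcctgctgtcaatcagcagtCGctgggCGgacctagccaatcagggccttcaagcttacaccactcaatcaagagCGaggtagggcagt

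Islands of Zfp genes were spread along the whole gene and its flanks. Of the 54 islands, 5 lay wholly upstream of the gene, 8 covered its start, 25 lay inside it, 5 covered its end and 13 lay wholly downstream, with the 2 islands that spanned an entire gene counted at both ends. They were slightly narrower than the other islands of the list, with a median of 3800 bp (quartiles 2650 and 6550 bp), against 4800 bp (3000 and 7600 bp) for the other 8188. They covered 272.4 kb in all. The list pairs each island with 1 gene and reaches 10 kb beyond it, so an island between neighbouring genes counts for only 1 of them.

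**Figure D1:**
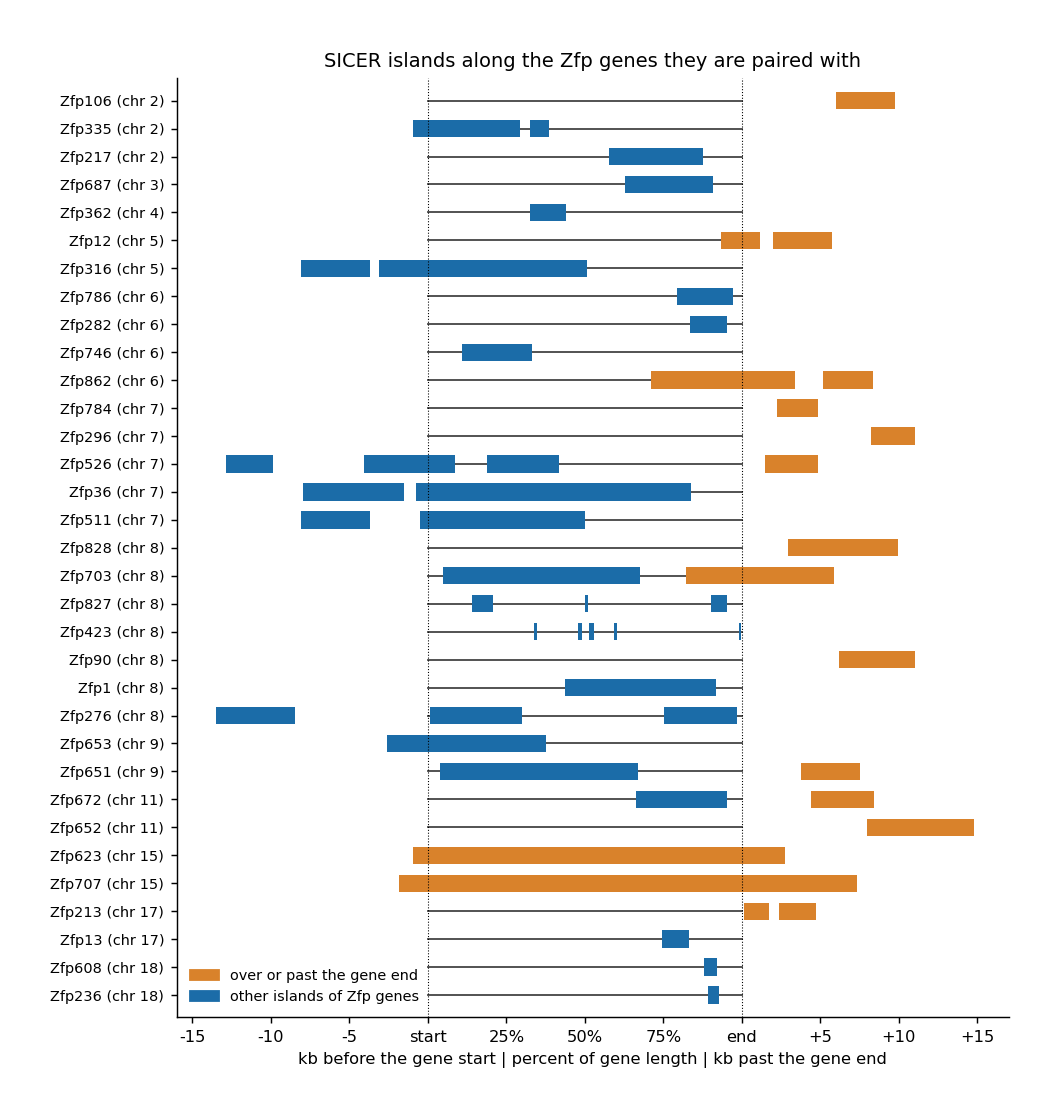
SICER islands of the 33 Zfp genes, each drawn on the strand of its gene, with the flanks in kb and the gene body scaled from start to end; chromosomes are in brackets. Orange islands lie over or past the gene end, and 7 genes have islands downstream only.

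An island lay over the end in 5 of 54 cases (9.26%, 3.08 to 20.3), against 12.9% (12.1 to 13.6) of the other islands. Long genes leave more room inside them, and the Zfp genes with an island were shorter than the others, with medians of 15647 and 19645 bp. When the other islands were weighted to the gene lengths of the Zfp islands, 15.7% covered the end.

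The share near the gene end depended on how nearness was counted. A midpoint within 1000 bp of the end was seen for 5.56% of Zfp islands, against 4.78% of the others. An edge within 1 kb of the gene end, or the island over it, was seen for 12 islands (22.2%, 12 to 35.6), against 18.4% of the other islands and 22.4% at the same gene lengths. A midpoint within 5 kb of the gene end was seen for 21 islands (38.9%, 25.9 to 53.1), against 23.4% (22.5 to 24.3) of the others and 28.5% at the same gene lengths. Wholly downstream lay 13 islands (24.1%, 13.5 to 37.6), against 15.6% (14.8 to 16.4) of the others and 19.4% at the same lengths. The intervals for Zfp islands held the shares at the same lengths for the end itself, the edge within 1 kb, the midpoint within 5 kb and the downstream islands.

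Along the gene, island midpoints of Zfp genes stood at a median of 74.7% of the way from start to end, against 56.6% for the other islands. In all, 33 midpoints (61.1%, 46.9 to 74.1) lay past the middle of the gene or beyond its end, against 53.8% of the others. Islands inside the gene made up 46.3% of Zfp islands (32.6 to 60.4), against 46.9% of the others, and 34.2% at the same gene lengths.

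**Figure D2:**
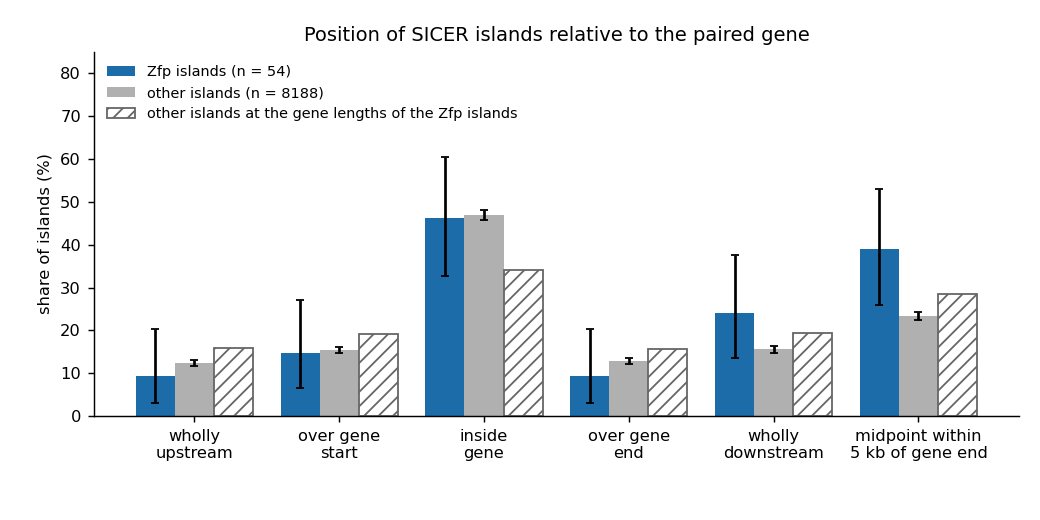
Share of islands (%) at each position relative to the paired gene, for the 54 Zfp islands, the 8188 other islands and the other islands weighted to the gene lengths of the Zfp islands; error bars are exact 95% binomial intervals. Zfp islands over the gene end (9.26%) stand below the other islands (12.9%, and 15.7% at the same gene lengths). Zfp islands with a midpoint within 5 kb of the end (38.9%) stand above the other islands (23.4%, and 28.5% at the same gene lengths). The intervals of both Zfp shares hold the shares at the same gene lengths.

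The members with an island over the gene end were Zfp12, Zfp623, Zfp703, Zfp707 and Zfp862. Zfp703, whose human counterpart is an oncogene of luminal breast tumours, had an island on chromosome 8 from 28091200 to 28097799 that ran 5.865 kb past the end. A second island, from 28088000 to 28090599, lay inside the same 4127 bp gene and began 193 bp after its start. At Zfp862, listed with a non-coding transcript and named Zfp862-ps by RefSeq, the island on chromosome 6 from 48476000 to 48488199 reached 3.368 kb past the end. Zfp623 and Zfp707 are neighbours on chromosome 15, and both lay entirely within an island, of 12.2 kb from 75770400 and of 15.8 kb from 75797800. The island of Zfp707 was the widest of any member.

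Zfp12 and Zfp316 on chromosome 5 face each other with their ends, at 144009649 and 144011373, and do not overlap. Separate islands lay at these ends, and none of them touched both genes. An island from 144008800 to 144010799 covered the end of Zfp12, and the next, from 144011600 to 144015399, was paired with Zfp12 but lay inside Zfp316, by the deposited gene positions. The narrow region of Zfp316, from 144015000 to 144016000, shared bases with that island at its rounded position. Zfp316 also had an island of 13.4 kb over its start and another 3.699 kb upstream. Zfp276 and Fanca, a gene of DNA crosslink repair, do overlap at their ends on chromosome 8. The island from 125790400 to 125794199 lay inside Zfp276, 252 bp before its end, and overlapped Fanca in part.

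Further islands stopped short of the gene end by under 1 kb. The distance from the island's edge to the end was 336 bp in Zfp786, 385 bp in Zfp672, 398 bp in Zfp36, 692 bp in Zfp423 and 777 bp in Zfp687. In Zfp213 the nearer of its islands began 134 bp past the end. These 6 genes lie on chromosomes 6, 11, 7, 8, 3 and 17 in this order. The island of Zfp36 also covered the start, since the gene is 2445 bp long. The ends used here are those of the deposited transcripts. RefSeq gives spans of 21275 bp for Zfp687, 20662 bp for Zfp786 and 15255 bp for Zfp672, against 8537, 11240 and 8233 bp deposited. For Zfp423 it gives 300244 bp against 297786 bp, and for Zfp36 and Zfp213 the spans were equal. Which end differed was not tested.

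In 7 genes the islands lay downstream only. The gap past the gene end was 2.961 kb for Zfp828, 5.966 kb for Zfp106, 6.211 kb for Zfp90, 7.973 kb for Zfp652 and 8.195 kb for Zfp296. It was 2.248 kb for Zfp784, and Zfp213 had gaps of 0.134 and 2.334 kb. Zfp828 is named Champ1 by RefSeq, and its product acts at the attachment of chromosomes to the spindle. None of the islands paired with these genes touched the gene itself.

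Islands over the gene start were seen in 8 members (14.8% of islands, 6.62 to 27.1), against 15.4% of the other islands and 19.2% at the same gene lengths. Besides Zfp623 and Zfp707 these were Zfp36, Zfp316, Zfp335, Zfp511, Zfp526 and Zfp653. Zfp36 encodes tristetraprolin, which speeds the decay of AU-rich mRNAs such as that of TNF. Its island of 2.8 kb on chromosome 7, from 29162200 to 29164999, ran from 752 bp before the start, and a second island of 6.4 kb lay 1.553 kb upstream. Zfp335, a cofactor needed in neural progenitors, had an island of 6.8 kb on chromosome 2 from 164731400 to 164738199 that began 949 bp before its start. In Zfp511 the island over the start began 489 bp before it, with another 3.69 kb upstream, and in Zfp653, which encodes a corepressor, an island of 8.6 kb began 2610 bp before the start. In Zfp526, 4 islands lay around a gene of 6055 bp: 9.870 kb upstream, over the start, inside, and 1.476 kb downstream. The island furthest upstream and the one over the start both overlapped Dedd2, the neighbouring gene on the opposite strand.

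Among the members with an island, the longest carried islands deep in the gene. Zfp704, Zfp438 and Zfp148, with RefSeq lengths of 183076, 124800 and 123129 bp, had narrow regions but no island. Zfp423, a cofactor of SMAD and EBF proteins that marks precursors of fat cells, spans 297786 bp on chromosome 8 and had 5 islands. Their midpoints stood at 34.2%, 48.4%, 52.1%, 59.7% and 99.4% of the gene, and none lay near the start. Zfp827, whose human counterpart recruits the NuRD complex to telomeres, spans 165330 bp on the same chromosome and had islands at 17.3%, 50.5% and 92.6%. Zfp608 and Zfp236 on chromosome 18 each had 1 island, at 90.0% and 90.9% of genes of 102136 and 99138 bp. Zfp217, whose human counterpart is amplified in breast tumours, had an island of 10.2 kb at 72.5% of its length. Zfp106, an RNA-binding protein gene of 57002 bp, had none in its body.

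In all, 19 of the 33 members had a single island and 14 had more. Of these 14, 10 had 2 islands, Zfp276 and Zfp827 had 3, Zfp526 had 4 and Zfp423 had 5. In 12 members every island lay inside the gene, and in 26 at least 1 island overlapped the body. Among the 12, Zfp1 on chromosome 8 had the widest island, of 13.2 kb at 67.7% of its length, and Zfp362 on chromosome 4 had 1 of 3.8 kb at 38.3%. Zfp13 had 1 at 78.9%, next to Zfp213 on chromosome 17. Zfp651 and Zfp672 had 1 island inside the gene and 1 downstream, at gaps of 3.74 and 4.416 kb.

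Narrow MACS regions of Zfp genes lay mostly inside genes or just upstream of them. Of the 28 regions, 14 (50%, 30.6 to 69.4) were described as contained within the gene, against 40% of the 1591 other regions within the same distance. A further 6 (21.4%) were intronic, against 27%, and 1 (3.57%) overlapped a gene edge, against 12.9%. Upstream lay 7 regions (25%, 10.7 to 44.9), against 18.8%, at a median distance of 80 bp, against 222 bp. Downstream lay 0 of 28, which allows a share of up to 10.7% (3 counts of the total), against 1.19%. The intervals of the contained, intronic, edge (0.0904 to 18.3), upstream and downstream shares of Zfp regions all held the shares of the other regions. The distance was part of how the members were chosen. The wording was not, but it goes with the distance.

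The 7 upstream regions belonged to Zfp810 (17 bp), Zfp251 (34 bp), Zfp964 (55 bp), Zfp286 (80 bp), Zfp3 (149 bp), Zfp597 (295 bp) and Zfp30 (409 bp), by the deposited distance. The last was the farthest of any member, and the nearest Zfp region beyond the limit was that of Zfp395, at 15113 bp. Regions of Zfp958 and a further one of Zfp369 lay 48048 and 53996 bp away and were not counted. Positions of 8 digits are rounded to 100 bp in this list and those of 9 digits to 1000 bp, so the side of the start is uncertain for the nearest of these. Zfp30 had the fewest CpG of the 5 upstream-region promoters in the table, and Zfp3 had the most, as printed above.

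Zfp704, Zfp251 and Zfp964 were the members with more than 1 narrow region. Zfp704 had 3 on chromosome 3. Of these, 9451160 to 9451370 and 9451660 to 9452280 lay close together and 9609280 to 9609330 stood apart. The nearest island of any gene to these 3 was 400070 bp away. Members with a contained region alone were Zfp142, Zfp263, Zfp358, Zfp369, Zfp422 and Zfp579, and those with an intronic region alone were Zfp148, Zfp438 and Zfp869. Zfp148 encodes a factor that binds GC-rich promoters, and its region lay on chromosome 16 from 33381400 to 33381500. The 490 bp region of Zfp358 on chromosome 8, from 3495900 to 3496390, stood on 12 lines of the deposited list, the most of any member. All lines of members together numbered 72 for the 28 regions. No source used here says what a repeated line stands for.

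Narrow regions of Zfp genes lay in islands in 5 of 28 cases (17.9%, 6.06 to 36.9), against 31.9% (29.6 to 34.2) of the other regions. These were the regions of Zfp335, Zfp423 and Zfp651 in islands of the same gene, that of Zfp316 in the island paired with Zfp12, and that of Zfp358 in an island paired with Mcoln1. Zfp12 and Zfp213 had both kinds of region at different places. In Zfp12 the narrow region at 143997000, a position rounded to 1000 bp, stood 114 bp after the gene start, and its islands at and past the end. In Zfp213 the narrow region at 23695000 stood at 82.3% of the gene and 1401 bp from the nearest island.

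Across the family, the share of genes with an island was below that of all protein-coding genes. Of 367 protein-coding Zfp genes in the RefSeq table, 31 were named with an island (8.45%, 5.81 to 11.8), and the share of all 21887 protein-coding genes was 17.2%. With a narrow region within 5000 bp there were 24 Zfp genes (6.54%, 4.23 to 9.57), near the 5.78% of all protein-coding genes. With either kind there were 49 (13.4%), against 20.7%. The members were picked for having a region, so these shares describe the whole family and lend nothing to the members. At each chromosome's own share of protein-coding genes, 58.4 Zfp genes would carry an island, 16.9 a narrow region and 68.7 either.

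Members stood on 15 chromosomes, with 11 of the 51 (21.6%) on chromosome 8. That chromosome holds 25 Zfp genes, 6.81% of the family. Of these, 10 had a region (40%), and so did 39.7% of all its protein-coding genes. Chromosome 7 holds 90 Zfp genes, 24.5% of the family, and 7 of them had a region (7.78%), against 9.75% of its protein-coding genes. On chromosome 17, 2 of 41 Zfp genes had a region (4.88%), against 27.4% of its protein-coding genes. On chromosomes 4 and 13, 1 of 27 and 1 of 32 had one, against 11.9% and 6.63% of their protein-coding genes. On chromosome 16, 3 of 5 Zfp genes had a narrow region and none an island, where 34.5% of protein-coding genes had a narrow region.

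**Figure D3:**
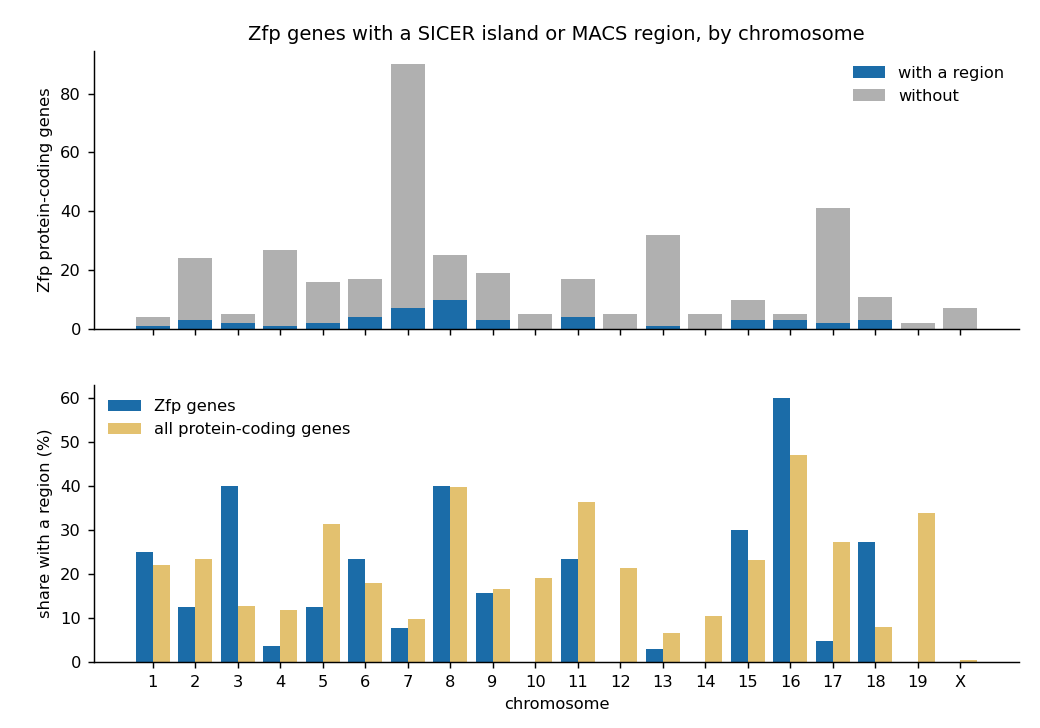
Upper panel, number of protein-coding Zfp genes per chromosome with and without a SICER island or MACS region; lower panel, share (%) with a region among Zfp genes and among all protein-coding genes. On chromosome 8 the shares are close (40% and 39.7%), and on chromosome 17 they are apart (4.88% and 27.4%).

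Within the family, the share of genes with a region was 19.4% among genes that stand alone and 4.11% in the densest clusters, a difference that was not tested. Neighbours were counted as other Zfp genes among the 5 protein-coding genes on each side, in RefSeq order. With no Zfp neighbour, 24 of 124 genes had a region (19.4%, 12.8 to 27.4). With 1 to 2 neighbours it was 15 of 96 (15.6%, 9.02 to 24.5), with 3 to 5 it was 7 of 74 (9.46%, 3.89 to 18.5) and with 6 or more it was 3 of 73 (4.11%, 0.856 to 11.5). At the share of all protein-coding genes on the same chromosomes, the 4 classes would stand at 21.4%, 19.8%, 16.8% and 14.6%. Other protein-coding genes in the same kinds of neighbourhood had regions in 20.7%, 22.7%, 12.5% (26 of 208) and 0 of 17 cases. The shares of these other genes were not set against those of their chromosomes, and the last class is small. The median Zfp gene lengths were 19.8, 15.8, 15.6 and 21.3 kb in the same order. The 3 genes with a region in the densest class were Zfp30, Zfp282 and Zfp746.

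For islands taken alone the share was 13.7% with no Zfp neighbour and 2.74% with 6 or more. Narrow regions stood at 8.06% with no Zfp neighbour, 8.33% with 1 to 2, 6.76% with 3 to 5 and 1.37% (1 of 73) with 6 or more. For other protein-coding genes these shares were 5.81%, 5.99%, 0.962% and 0%. Chromosomes differed among the Zfp genes with 3 or more Zfp neighbours: 3 of 9 had a region on chromosome 8, 3 of 57 on chromosome 7, and 0 of 27, 0 of 19 and 0 of 16 on chromosomes 17, 13 and 4. Among Zfp genes with fewer neighbours these counts were 7 of 16, 4 of 33, 2 of 14, 1 of 13 and 1 of 11 in the same order.

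**Figure D4:**
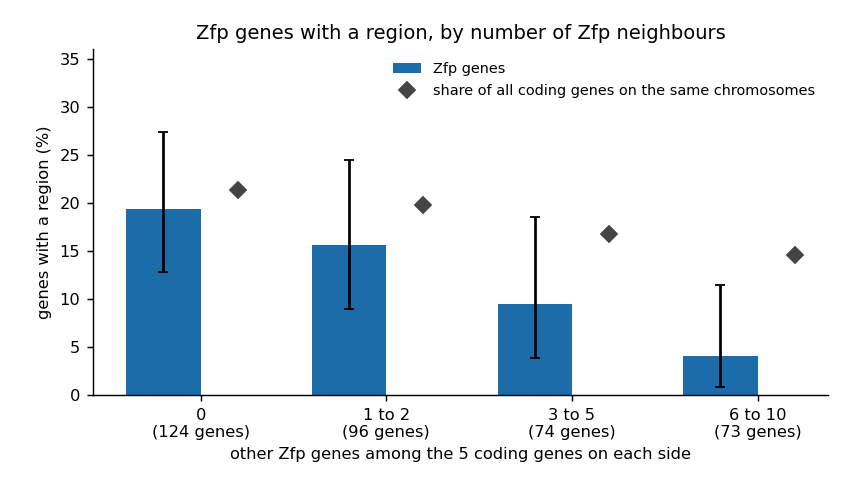
Share of protein-coding Zfp genes (%) with a SICER island or MACS region by the number of Zfp neighbours, with exact 95% binomial intervals; diamonds give the share of all protein-coding genes on the same chromosomes. The share of Zfp genes is 19.4% with no Zfp neighbour and 4.11% with 6 or more, and the diamonds stand at 21.4% and 14.6%.

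Some members stood side by side. Regions of 13 members lay within 100 kb of another member's, in 7 neighbouring pairs. On chromosome 8, Zfp964, Zfp869 and Zfp963 follow each other with no other protein-coding gene between them. Their narrow regions stood 55 bp before the start of Zfp964 and again in its intron, in an intron of Zfp869 and across an edge of Zfp963, with gaps of 61.5 and 33.3 kb between the regions of neighbouring genes. None of the 3 had an island. The pairs Zfp12 and Zfp316, Zfp623 and Zfp707, and Zfp213 and Zfp13 also had no protein-coding gene between them. Zfp579 and Zfp784 on chromosome 7 lay 36.1 kb apart, and Zfp786 and Zfp282 on chromosome 6 lay 81.8 kb apart. On chromosome 6, Zfp786, Zfp282, Zfp746 (whose human counterpart represses PGC-1alpha) and Zfp862 followed each other among the members, with gaps of 81.8, 171.6 and 442.0 kb. Between Zfp786 and Zfp282 lay 1 protein-coding gene, Zfp398, and between Zfp282 and Zfp746 lay 3, Zfp212, Zfp956 and Zfp777. None of these Zfp genes between the members had a region. By the deposited gene positions, islands stood late in the gene in Zfp786, Zfp282 and Zfp862, at 88.1%, 89.4% and 91.0%, but early in Zfp746, at 21.9%. Zfp862 had a second island, 5.169 kb past its end.

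RefSeq promoter sequences were matched for 36 of the 51 members and for 305 of the 367 Zfp genes, with the mean taken over annotated starts. In the 250 bases before the start, the median was 16 CpG (quartiles 11.8 and 22.2) for Zfp genes with a region and 9.67 CpG (6 and 15) for those without. Other protein-coding genes with a narrow region had a median of 18.2, those with an island 15.5 and those with no region 8. At least 1 CpG was present in 93% of all protein-coding promoters, and 10 or more in 50.9%. The shift was thus seen in other genes too.

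By CpG, 5 of 140 Zfp genes with under 10 CpG had a region (3.57%, 1.17 to 8.14), 19 of 121 with 10 to under 20 (15.7%, 9.73 to 23.4) and 12 of 44 with 20 or more (27.3%, 15 to 42.8). For other protein-coding genes these shares were 11%, 28.5% and 32.0%. CpG and clustering went together: the median promoter held 14 CpG in Zfp genes with no Zfp neighbour and 7 in those with 6 or more. Members with an island over the start had 15 to 26.0 CpG, with a median of 19.5 in 6 genes. Members whose islands lay elsewhere had a median of 16 in 17 genes, against 9.67 in Zfp genes without a region.

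**Figure D5:**
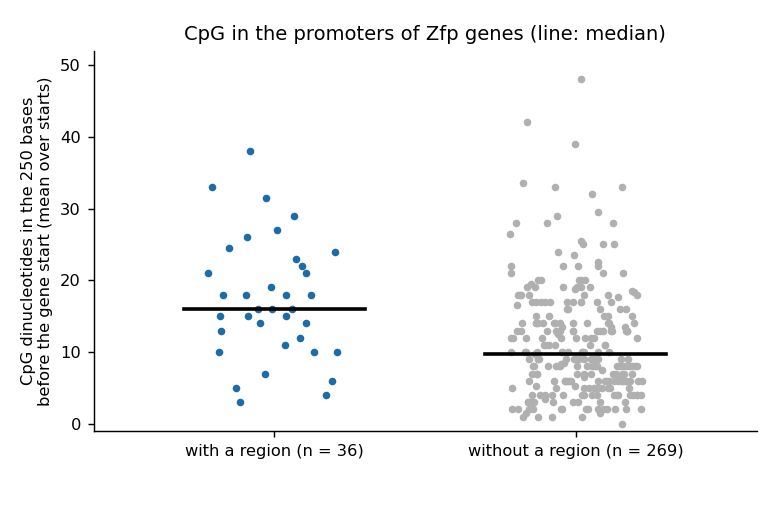
CpG dinucleotides in the 250 bases before the gene start for Zfp genes with and without a region; each point is a gene, and the line is the median. The 36 genes with a region have a median of 16 and the 269 genes without 9.67, and the ranges overlap.

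A list of corepressor and chromatin genes, wider than the TRIM28 route of KRAB zinc finger proteins, was looked up in the same lists. Of 28 genes, 7 had an island (25%), against 17.2% of all protein-coding genes, and 2 had a narrow region (7.14%), against 5.78%. The genes with an island were Ctbp1, Ctbp2, Chd4, Dnmt1, Dnmt3a, Ehmt2 and Uhrf1, and those with a narrow region were Chd4 and Morc3. Trim28 and Setdb1, the corepressor and its histone methyltransferase, had neither. Dnmt1, the maintenance methyltransferase, had 4 islands, all inside the gene. Among other zinc finger families by symbol, the BTB zinc finger genes (Zbtb) had 4 of 41 with an island (9.76%) and 5 with a narrow region (12.2%), and the SCAN zinc finger genes (Zscan) had 1 of 16 with an island (6.25%). Palmitoyltransferase genes of the Zdhhc family, which carry a zinc-binding domain but bind no DNA, had 4 of 24 with an island (16.7%). Of the remaining families, Zkscan had 2 of 11 with an island, Zc3h 3 of 16, Zcchc 2 of 13, Znrf 3 of 4, Zmiz 2 of 2, Zfhx 1 of 3, Zmynd 1 of 6, Zswim 1 of 9 and Zmym 0 of 6.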

How the data were processed

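The authors deposited base positions and distances in bp for 2 lists of regions of the whole series, with no value per library. The submitters' processing notes name Bowtie2 2.10, MACS 1.4, SICER and the build mm10, with no settings. No source used here says whether the lungs were pooled. The MACS list held 4304 lines, which were reduced to 1705 distinct regions, and an end written as a question mark was set to the start. Start and end of each island were compared with the deposited position of its paired gene on its strand, with 1 shared bp as overlap. Symbols of Zfp and digits alone were used.

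Of the 33 genes with an island, 1 had a deposited position within 1 kb of RefSeq GRCm38, and the median difference was 174 kb. Most printed positions of these genes thus do not match mm10 (GRCm38), the build that the processing notes name. Which build they follow is not known. Islands covered the gene start in 17.3% of cases where positions equal GRCm38 within 1 kb and in 15.3% elsewhere, and the gene end in 15.8% (13.1 to 18.7) and 12.6% (11.8 to 13.3). From RefSeq only names, biotypes, lengths, gene order and promoter sequences were used, apart from this check. Of the 51 members, 51 matched, 2 under another symbol.

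Members and lists were chosen with earlier results of these data known. Genes were named where they had both kinds of region, an island over the gene end, at least 2 regions or a neighbouring member. Other genes named were chosen after their values were seen. Counts of protein motifs, which were planned, were not made because no protein sequence was used here. Python 3.11.15, pandas 2.3.3 and scipy 1.17.1 were used. The position classes were tested on simulated data.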

Additional observations from a re-analysis of the deposited data

How the results depend on the processing

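No paired analysis was possible because neither list separates lung 3 and lung 5. Leaving out a lung was not possible either. The number of members stayed between 45 and 55 under every alternative tried, among them overlap with the gene body (45), a distance of 0 bp (46) and symbols with further letters (55). Counting every deposited line gave 72 MACS entries in place of 28. The share of Zfp islands at the gene end was 9.26% by overlap and 38.9% by a midpoint within 5000 bp. It was 5.56% by a midpoint within 1000 bp, 4.17% for islands narrower than the gene, 5.71% for genes over 10 kb and 18.5% by a midpoint in the last 20% of the gene. For midpoints within 2000 bp it was 14.8%. The share at the gene start was 14.8% by overlap and 3.70% by a midpoint within 1000 bp. These wordings count different islands by construction. Taken as the share of its own Zfp genes, chromosome 8 stood at 40%, in place of 21.6% of members. Without chromosome 8, Zfp genes with no Zfp neighbour had regions in 15.6% of cases. With 10 genes counted on each side, 0 of 46 Zfp genes with at least 12 Zfp neighbours had a region, which allows up to 6.52% (3 counts of the total), in place of 4.11%. With 3 genes on each side, 7.59% of 79 Zfp genes with at least 4 Zfp neighbours had one. Weighting by gene length, the neighbour counts, CpG, and the shares downstream and within 1 kb of the end were chosen after seeing the data.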
